A study of Mus musculus with 4 samples.

Results

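Insulin-like growth factor (IGF) signalling was described in tibialis anterior muscle through 10 genes: the ligands Igf1 and Igf2, the receptors Igf1r, Igf2r and Insr, the receptor substrates Irs1 and Irs2, and the binding proteins Igfbp3, Igfbp4 and Igfbp5. The genes were taken by name from the 32868 gene names in the deposited values, where each of the 10 had a single row, and all 10 were high enough to be tested. RNA came from C57BL/6 mice aged 21 days, and the labels give 2 Het and 2 Nf1-KO libraries. The Het genotype is Nf1flox/+/Myf5+, with 1 floxed allele of Nf1, and the Nf1-KO genotype is Nf1flox/flox/Myf5+, with both alleles floxed. Both groups therefore carry Myf5+ and at least 1 floxed allele, and neither is a wild type. In such crosses Myf5+ stands for a Cre recombinase expressed from the Myf5 gene of muscle precursors, so vessels, connective tissue, nerve and leukocytes in the muscle lie largely outside the targeted lineage. The labels do not say whether the libraries came from separate animals, so the p-values measure only the spread between these libraries, which may be technical.

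IGF1 and IGF2 are small secreted proteins related to insulin, and both activate the IGF1 receptor, a tyrosine kinase of the same family as the insulin receptor. The active receptors phosphorylate the adaptor proteins IRS1 and IRS2, which recruit phosphatidylinositol 3-kinase and lead to Akt and mTOR, while a second branch runs through Ras, the GTPase that neurofibromin, the product of Nf1, switches off. IGF2R does not signal in this way: it carries IGF2 to lysosomes for breakdown. Binding proteins hold the ligands outside the cell and either block or prolong their action. In muscle, IGF1 drives fibre growth, and IGF2 acts early in the differentiation of muscle cells and falls after birth.

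Each deposited value is read as RPKM, reads scaled by the length of the gene and by the depth of the library, so levels can be set beside each other across genes. Values summed to between 532146 and 546969 RPKM per library over named genes. The authors' deposited table gives mean normalized counts of 418 for Igf1, the lowest of the 10 genes, and 26704 for Igfbp5, the highest. Nf1 itself, the targeted gene, stood at 1.09 and 1.01 RPKM in Het against 0.89 and 0.85 RPKM in Nf1-KO (limma adjusted p 0.041). Its log2 fold change of -0.18 lost the call when any 1 library was left out (limma adjusted p from 0.062 to 0.176). It was -0.33 at a pseudocount of 0.1 (limma adjusted p 0.045), and the authors' deposited table holds -0.38 for Nf1 (adjusted p 0.0026). Muscle fibre markers were abundant in every library, with Acta1 between 12305 and 15930 RPKM.

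Of the 10 genes, 4 rose in Nf1-KO muscle (Igf2, Igfbp3, Irs2 and Igfbp4), 3 fell (Irs1, Igfbp5 and Igf2r), and Igf1, Igf1r and Insr did not pass the test. The test was limma on log2(scaled RPKM + 1), with p-values adjusted by Benjamini-Hochberg over 10690 genes and a threshold of 0.05. In the same fit 50.3% of all genes tested were called, 24.9% as higher and 25.4% as lower, so the 7 calls among 10 genes stand against a high background. The median absolute log2 fold change was 0.35 over the 10 genes and 0.16 over all genes tested. An absolute log2 fold change over 0.5 was reached by 3 of the 10 genes (Igf2, Irs1 and Igfbp5) and by 9.93% of all genes tested. Both comparisons are of sets of unlike abundance. The 10 genes were also picked when earlier results of these data were already known, so neither comparison tests for an excess. The scale understates changes of low genes, and the genes tested include many with a lower mean than any of the 10. The median signed log2 fold change was 0.0042 over the 10 genes and 0.00041 over all genes. With values as deposited and not scaled, 3760 genes were higher and 1883 lower, against 2661 and 2720 with scaling, and Insr joined the genes that rose.

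**Figure D1:**
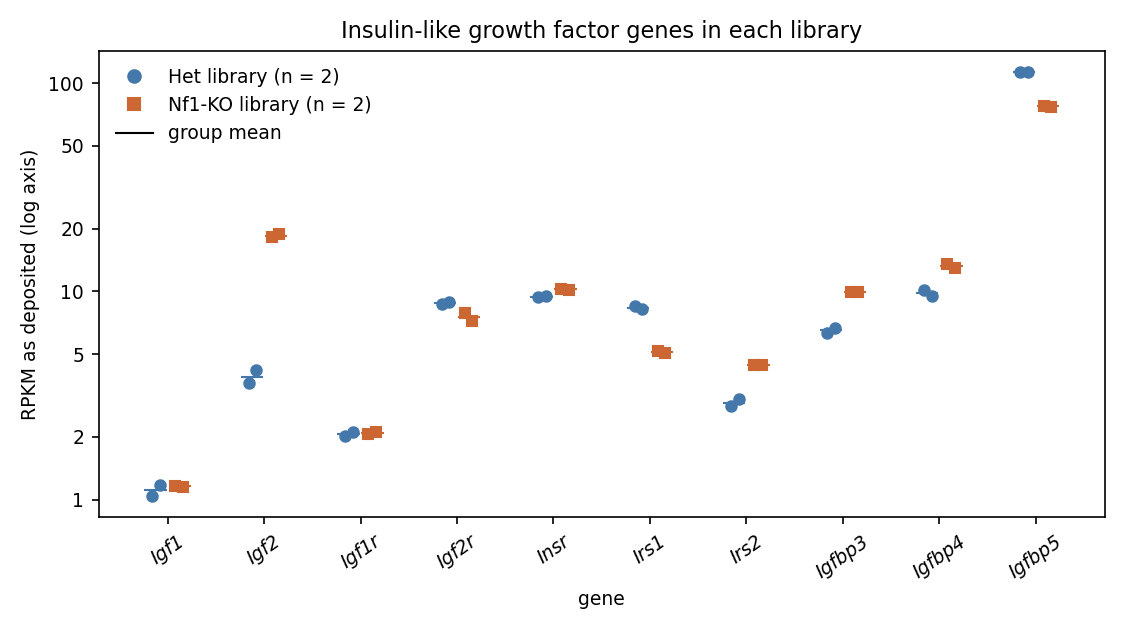
RPKM of the 10 genes in each library on a log axis, with Het libraries as circles, Nf1-KO libraries as squares and a line at each group mean (n = 2). Igf2 moves furthest, from 3.62 and 4.18 to 18.17 and 18.94 RPKM, while the points of Igf1 and Igf1r overlap between the groups.

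Promoter sequence is shown for Irs1, Irs2 and Igf2r, because these are the 3 genes of the set whose windows hold the E-box CACGTG, and because Irs1 and Irs2 moved in opposite directions. RefSeq windows of 250 bases before the transcription start (build GRCm38.p6) were found for 9 of the 10 genes. There were 12 windows in all, of which 4 belong to Igf2. The motifs were chosen after the windows had been read, and both strands were searched. Capitals mark CACGTG, the E-box bound by basic helix-loop-helix factors, and TTGTTTTG, a form of the insulin response element bound by FoxO factors. Each window is on the minus strand and is printed 5′ to 3′ in the direction of transcription.
Irs1 (chr1:82291440-82291689): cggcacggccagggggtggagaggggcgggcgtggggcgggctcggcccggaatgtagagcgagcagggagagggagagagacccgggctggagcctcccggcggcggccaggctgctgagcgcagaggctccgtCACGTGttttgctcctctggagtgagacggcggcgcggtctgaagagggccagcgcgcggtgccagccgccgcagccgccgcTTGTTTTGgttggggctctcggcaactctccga
Irs2 (chr8:11008930-11009179): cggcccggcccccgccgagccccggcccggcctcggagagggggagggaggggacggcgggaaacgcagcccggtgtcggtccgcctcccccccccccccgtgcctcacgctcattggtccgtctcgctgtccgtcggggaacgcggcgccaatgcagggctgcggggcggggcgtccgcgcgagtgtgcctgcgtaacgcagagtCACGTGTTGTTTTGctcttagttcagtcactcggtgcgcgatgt
Igf2r (chr17:12769707-12769956): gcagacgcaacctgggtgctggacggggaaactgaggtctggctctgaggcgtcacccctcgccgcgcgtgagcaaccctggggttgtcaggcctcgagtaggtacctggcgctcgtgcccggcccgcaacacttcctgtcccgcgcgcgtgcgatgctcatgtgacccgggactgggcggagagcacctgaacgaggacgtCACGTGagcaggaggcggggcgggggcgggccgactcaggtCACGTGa

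Both motifs occurred in the Irs1 window and in the Irs2 window. In Irs1 the E-box began 115 bases and the TTGTTTTG match 33 bases before the start. In Irs2 they began 44 and 38 bases before it, next to each other without a gap. The Igf2r window held CACGTG at 48 and at 7 bases before the start. These distances are from the RefSeq start. For Irs1, Irs2 and Igf2r, a stretch shortly after that start was not found in a GENCODE M21 transcript of the gene. The start, and so each distance, therefore rests on RefSeq alone. Of 32851 RefSeq windows of the same length, 6.02% held CACGTG, 2.21% held TTGTTTTG and 0.1% (33 windows) held both. Since the motifs were chosen after the windows had been read, these shares cannot show that the matches are unusual. The longest runs shared by the Irs1 and Irs2 windows were 2 of 10 bases, GTCACGTGTT and TGTTTTGCTC, which are present in 23 and 21 of all windows. Matches to the other motifs were few. CAGCTG, the E-box form preferred by myogenic factors, was found in the Igf1 window (13% of all windows), and TATAAA, the TATA box, in the Igfbp4 window (12.4%). GTAAACA, a forkhead site, and TGACTCA, an AP-1 site, were in none of the 12 (3.17% and 4.46% of all windows). These are matches of letters, and the data hold no measurement of binding.

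Igf2 showed the largest change of the set. Its level was 3.62 and 4.18 RPKM in Het and 18.17 and 18.94 RPKM in Nf1-KO. Both Nf1-KO libraries were far above both Het libraries. The group means were 3.9 ± 0.396 and 18.6 ± 0.544 RPKM (SD, n = 2), a ratio of 4.76. On the log2 scale the change was 1.92 ± 0.061 (SE), and limma's adjusted p was 3.0e-06. By log2 fold change, Igf2 stood at place 18 from the top among the 10690 genes tested, on a scale that understates changes of low genes. For Igf2 the authors' deposited table holds a change of 2.13 on the log2 scale (adjusted p 5.45e-182). Lowering the pseudocount from 1 to 0.1 brought the value here to 2.13 as well.

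Igf2 lies on chromosome 7, and its exons overlap those of Igf2os, an antisense RNA, and of the readthrough gene Gm49394 in GENCODE M21. Igf2os was listed at 0.03 and 0.03 RPKM in Het and at 0.06 and 0.08 RPKM in Nf1-KO, far below Igf2. The library kit does not mark strand, so reads of Igf2 and of its overlapping partners cannot be told apart. Which of its 4 starts was used was not analysed here. H19, the noncoding neighbour that shares its imprinted domain with Igf2, was listed at 0 in all 4 libraries. It is given only as a listed value, since a 0 in a file without counts can also be a failed estimate.

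Igf1, the main growth-promoting ligand of adult muscle, was low in every library. It was listed at 1.04 and 1.17 RPKM in Het and at 1.16 and 1.15 RPKM in Nf1-KO, and the groups overlapped. Its log2 fold change was -0.02 with a 95% interval from -0.16 to 0.13 (limma adjusted p 0.848). At this low level the scale understates changes, so the interval is too narrow as a range for the change in RPKM itself. For Igf1 the authors' deposited table gave -0.04 ± 0.14 (SE). The log2 fold change here turned positive with values as deposited (0.035) and without Het replicate 2 (0.029), so no direction can be given. Igf2 was thus the more abundant ligand in both groups: the ratio of Igf2 to Igf1 was 3.48 and 3.57 in Het and 15.7 and 16.5 in Nf1-KO. This ratio is formed within a library, so scaling between libraries does not touch it. The 2 ligands together came to 4.66 and 5.35 RPKM in Het and to 19.3 and 20.1 RPKM in Nf1-KO.

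The signalling receptors did not pass the test. Igf1r, the receptor for both ligands, was listed at 2.01 and 2.11 RPKM in Het and at 2.07 and 2.1 RPKM in Nf1-KO, with overlapping groups. Its log2 fold change was -0.05 with a 95% interval from -0.18 to 0.08 (limma adjusted p 0.450), and it was 0.012 with values as deposited. Insr, the insulin receptor, was more abundant, at 9.37 and 9.49 RPKM in Het and 10.31 and 10.2 RPKM in Nf1-KO. Its Nf1-KO libraries lay just above its Het libraries. After scaling the log2 fold change was 0.02 with a 95% interval from -0.06 to 0.11 (limma adjusted p 0.604), while without scaling it was 0.11 and passed (limma adjusted p 0.038). The authors' deposited table gave log2 fold changes of -0.09 for Igf1r and 0.01 for Insr, with adjusted p of 0.449 and 0.877. Insr exceeded Igf1r by 4.66 and 4.5 times in the Het libraries and by 4.98 and 4.86 times in the Nf1-KO libraries.

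Igf2r, which clears IGF2 and also sorts lysosomal enzymes, fell slightly. It was listed at 8.66 and 8.87 RPKM in Het and at 7.9 and 7.2 RPKM in Nf1-KO. Both Nf1-KO libraries were below both Het libraries. On the log2 scale the change was -0.28 ± 0.051 (SE; limma adjusted p 0.0050), and the authors' deposited table gave -0.32. Over 12 other settings, each library left out in turn among them, limma's adjusted p of Igf2r ran from 0.0031 to 0.045. The level of Igf2 stood at 0.418 and 0.471 times that of Igf2r in the Het libraries and at 2.3 and 2.63 times in the Nf1-KO libraries, so the order of the 2 transcripts was reversed.

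The substrates of the receptors moved in opposite directions. Irs1 was listed at 8.5 and 8.19 RPKM in Het and at 5.17 and 5.04 RPKM in Nf1-KO. No Nf1-KO library reached a Het library. Irs1 changed by -0.70 ± 0.042 (SE) on the log2(scaled RPKM + 1) scale (limma adjusted p 4.3e-05). The ratio of its group means as deposited, without scaling or the added 1, was 0.612. Irs2 was listed at 2.8 and 3.03 RPKM in Het and at 4.44 and 4.42 RPKM in Nf1-KO. Here both Nf1-KO libraries were above both Het libraries. Irs2 changed by 0.40 ± 0.052 (SE) on the same log2 scale (limma adjusted p 0.0012), and the ratio of its group means as deposited was 1.52. The authors' deposited table gave -0.81 for Irs1 and 0.49 for Irs2, with adjusted p of 1.8e-47 and 4.97e-05.

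The ratio of Irs1 to Irs2 was 3.04 and 2.7 in the Het libraries and 1.16 and 1.14 in the Nf1-KO libraries, so both transcripts stood at similar levels in Nf1-KO. Their sum was 11.3 and 11.2 RPKM in Het and 9.61 and 9.46 RPKM in Nf1-KO. Irs1 (chromosome 1) and Irs2 (chromosome 8) each overlap an exon of another gene on the opposite strand in GENCODE M21, Gm9747 for Irs1 and 9530052E02Rik for Irs2. The latter was listed at 0 in all libraries.

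**Figure D2:**
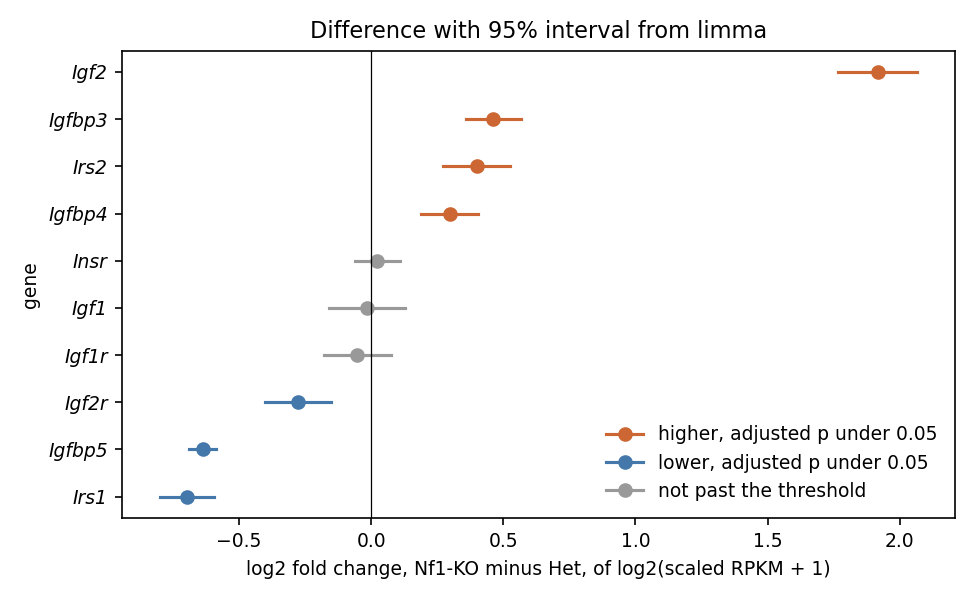
Log2 fold change of each gene, Nf1-KO minus Het, on the log2(scaled RPKM + 1) scale, with its 95% interval from limma (2 libraries per group). The intervals of Insr, Igf1 and Igf1r include 0, and Igf2, at 1.92, lies apart from the next gene, Igfbp3, at 0.46.

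Igfbp5 was the most abundant of the 10 genes in every library and fell. This binding protein attaches to the extracellular matrix and is known to be induced during muscle differentiation. It was listed at 113.46 and 113.34 RPKM in Het and at 77.96 and 77 RPKM in Nf1-KO. The groups did not overlap, and the 2 libraries of each group differed by less than 1 RPKM. On the log2 scale it changed by -0.64 ± 0.021 (SE; limma adjusted p 3.4e-06). In the authors' deposited table it was -0.66 with an adjusted p of 2.58e-185.

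Igfbp3 and Igfbp4 rose. Igfbp3, the main carrier of IGFs in blood, was listed at 6.3 and 6.7 RPKM in Het and at 9.99 and 9.91 RPKM in Nf1-KO. Igfbp4, which mostly inhibits IGF action, was listed at 10.21 and 9.55 RPKM in Het and at 13.49 and 12.9 RPKM in Nf1-KO. In both genes each Nf1-KO library was above each Het library. The log2 fold change was 0.46 ± 0.043 (SE) for Igfbp3 and 0.30 ± 0.045 (SE) for Igfbp4, with limma adjusted p of 2.7e-04 and 0.0022. The authors' deposited table gave 0.50 and 0.31.

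Igfbp1 to Igfbp7 were then added up within each library, which brings in Igfbp7 and Igfbp6 from a list of further genes of the system. The sum was 174 and 176 RPKM in Het and 141 and 139 RPKM in Nf1-KO. Igfbp5 made up 65.2% and 64.3% of it in Het and 55.2% and 55.5% in Nf1-KO. The share of Igfbp4 went from 5.87% and 5.41% to 9.56% and 9.29%, and that of Igfbp3 from 3.62% and 3.8% to 7.08% and 7.14%. Igfbp7 held 20.9% and 21.9% in Het and 22.3% and 22.6% in Nf1-KO, a far smaller shift. Igfbp5 remained the largest part of the sum in all 4 libraries.

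**Figure D3:**
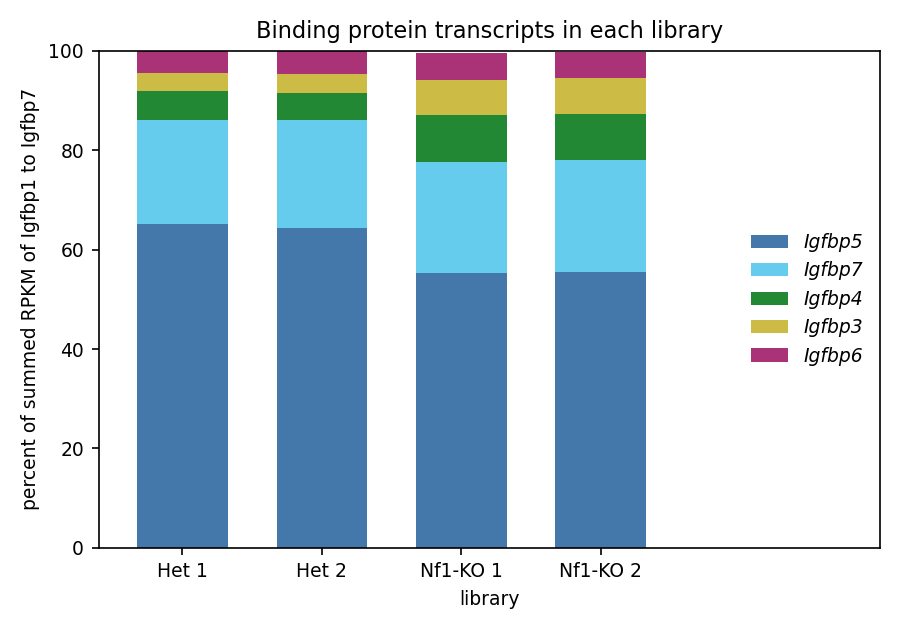
Share of the summed RPKM of Igfbp1 to Igfbp7 held by each of 5 binding protein genes in each library, in percent; the small remainder is Igfbp2. Igfbp5 holds 65.2% and 64.3% in the Het libraries and 55.2% and 55.5% in the Nf1-KO libraries.

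Ordered by level, the Het libraries had Igfbp5 first at 113 RPKM, then Igfbp4, Insr, Igf2r, Irs1, Igfbp3, Igf2, Irs2, Igf1r and Igf1. The gap of 0.45 RPKM between Igfbp4 and Insr was smaller than the sum of their SDs (0.552), so these neighbours did not differ beyond their spread. Igf2r and Irs1 differed by 0.42 RPKM against a sum of SDs of 0.368. In Nf1-KO the order was Igfbp5, Igf2, Igfbp4, Insr, Igfbp3, Igf2r, Irs1, Irs2, Igf1r and Igf1, and every gap exceeded the sum of the SDs. Igf2 went from place 7 to place 2, while Igf1r and Igf1 kept the last places in both groups. With 2 libraries a group, an SD is a rough measure, and the gene lengths behind the RPKM are not given in the sources used here.

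In values as deposited, the libraries of the groups did not overlap for 8 of the 10 genes (all but Igf1 and Igf1r), against 77.3% of all genes tested. With scaled values they did not overlap for 9 (all but Igf1), against 76.3%. For a single gene, an exact permutation test of 2 libraries against 2 has a smallest p of 0.333, so limma's pooling of variance across genes carries the calls. In the authors' deposited table, where 31.6% of genes were called, the same 7 of the 10 genes had an adjusted p under 0.05, each with the direction given here.

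**Figure D4:**
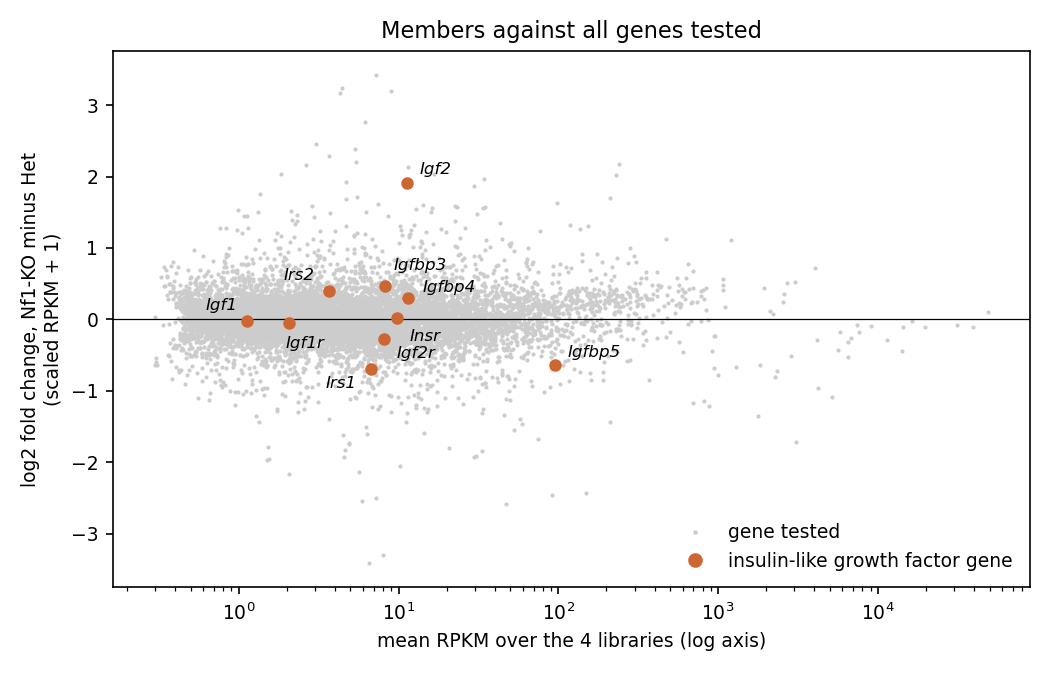
Log2 fold change, Nf1-KO minus Het, against mean RPKM over the 4 libraries (log axis) for the 10690 genes tested, as small grey points, with the 10 genes in colour. Igf2 lies near the upper edge of the cloud, and Igfbp5, at a mean of 95.4 RPKM, lies below 0 at -0.64.

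Genes around the members were described through 4 lists, whose counts stand against the 50.3% of all genes that were called (24.9% higher, 25.4% lower). All 4 lists were picked when earlier results of these data were already known, so the counts describe the lists and do not test for an excess. The first held 22 other ligands, binding proteins, proteases that cut them and related genes, of which 9 could be tested, with 1 higher and 5 lower (median log2 fold change -0.15). Without scaling the median was -0.07 and Igfbp6, one of the 5, lost its call. Igfbp7, the second most abundant binding protein gene, fell from 36.32 and 38.58 RPKM to 31.51 and 31.31 RPKM, a log2 fold change of -0.34 (limma adjusted p 4.2e-04). The secreted serine proteases of the Htra family diverged: Htra1 fell by 0.38 and Htra3 rose by 0.53 on the log2 scale (limma adjusted p 6.4e-04 and 4.8e-04). Kazald1, a gene related to the binding proteins, fell from 2.93 and 2.49 RPKM to 1.25 and 0.95 RPKM, a log2 fold change of -0.88 (limma adjusted p 4.3e-04). For this low gene it was -1.32 at a pseudocount of 0.1, and the authors' deposited table holds -1.40 for Kazald1. The insulin gene Ins1 and Igfbp1 were listed at 0 in all libraries. The metalloproteinase gene Pappa, whose product cuts IGFBP4, was listed at or under 0.06 RPKM in each library and was not tested.

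The second list held 35 genes of signalling close to the receptor, of which 30 were tested, with 8 higher and 10 lower and a median of -0.05. The 18 calls among 30 are near the share over all genes. Without scaling 10 were higher and 7 lower, and the median was 0.0057. Pik3r1, which encodes a regulatory subunit of phosphatidylinositol 3-kinase that binds IRS proteins, rose from 3.01 and 3.06 RPKM to 6.03 and 6.1 RPKM, a log2 fold change of 0.73 (limma adjusted p 4.2e-05). Of the other regulatory subunit genes, Pik3r2 did not pass (-0.07), and Pik3r3 fell by 0.22 (limma adjusted p 0.020), a call that was lost without scaling. The catalytic subunit gene Pik3cd fell from 2.85 and 2.69 RPKM to 1.27 and 1.31 RPKM, a log2 fold change of -0.78 (limma adjusted p 7.8e-05). Pik3ca, another catalytic subunit gene, fell by 0.25 on the log2 scale, and Pik3cb, a further one, did not pass (-0.06). Among these genes, 2 ubiquitin ligase genes whose products act on IRS1 rose: Trim72 from 62.68 and 61.31 RPKM to 85.26 and 85.22 RPKM, and Fbxw8 from 5.46 and 5.23 RPKM to 8.15 and 8.49 RPKM. Fbxo40, another such ligase gene and specific to muscle, fell by 0.14 (limma adjusted p 0.0048), a call that was lost without scaling.

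The third list was the growth hormone axis, the signal that induces Igf1 through JAK2 and STAT5. Of 8 genes 7 were tested, and 6 were called lower and none higher. Their median change on the log2 scale was -0.40. Among all genes 25.4% were called lower. The list was picked when earlier results of these data were already known, so its count cannot show an excess over that share. Cish, a feedback inhibitor that STAT5 induces, fell from 24.03 and 24.54 RPKM to 10.57 and 10.7 RPKM, a log2 fold change of -1.21 (limma adjusted p 1.5e-06). Jak2, the kinase bound to the growth hormone receptor, fell from 15.6 and 15.39 RPKM to 8.12 and 8.51 RPKM, a log2 fold change of -0.91 (limma adjusted p 8.1e-06). Stat5b fell by 0.40 and Socs2, a further feedback inhibitor, by 0.50 on the log2 scale (limma adjusted p 5.9e-05 and 4.1e-04). Ghr, the receptor, fell by 0.24. Socs3 was at 0.02 (limma adjusted p 0.877), and the call of Stat5a was lost without scaling. Igf1 itself did not pass, as given above.

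The last list held 14 imprinted genes linked to growth, without Igf2 and Igf2r. Of these 10 were tested, with 4 higher and 2 lower and a median log2 fold change of 0.15. These 6 calls among 10 are near the 50.3% of all genes, and Grb10 is counted in the second list too. Grb10, an adaptor that binds the insulin and IGF1 receptors and inhibits them, rose from 3.75 and 3.3 RPKM to 6.38 and 6.83 RPKM, a log2 fold change of 0.67 (limma adjusted p 2.7e-04). Ndn and the noncoding RNA Rian rose by 0.51 and 0.43 (limma adjusted p 0.0055 and 0.0011); Ndn lost its call with no filter on low values (limma adjusted p 0.058). The amino acid transporter gene Slc38a4 fell from 9.37 and 9.8 RPKM to 3 and 2.84 RPKM, a log2 fold change of -1.51 (limma adjusted p 2.9e-06). Gnas, the other gene called lower, was higher with values as deposited. Exons of Igfbp7, Trim72, Fbxw8, Cish and Rian overlap those of other annotated genes, and reads from such partners are not separable in these values.

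**Figure D5:**
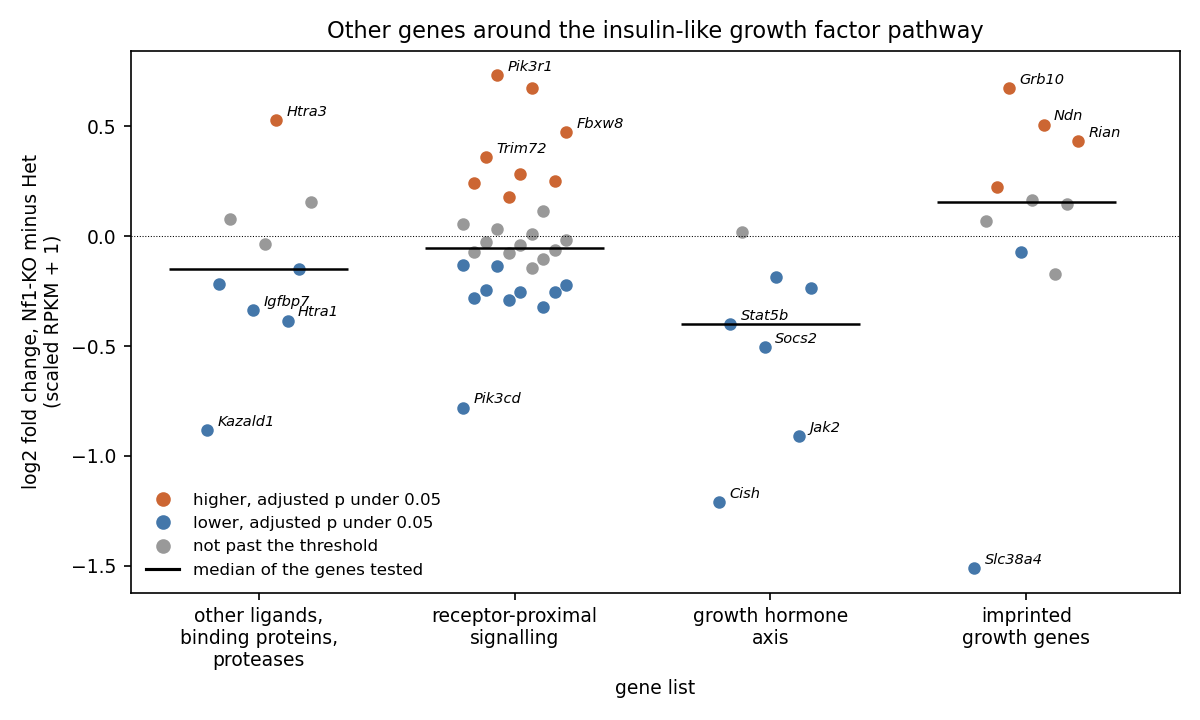
Log2 fold change, Nf1-KO minus Het, of every tested gene in the 4 lists, with colour for the call and a line at each list's median. In the growth hormone axis 6 of 7 genes lie below 0 and are called lower, while signalling genes close to the receptor lie on both sides.

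Markers of other cells in the muscle are given beside these genes. Over all genes tested, 24.9% were called higher and 25.4% lower. Fibroblast markers summed to between 91.3 and 93.9 RPKM in Het and between 135 and 136 RPKM in Nf1-KO, with 5 of 6 called higher. Schwann cell markers summed to 9.5 and 9.68 RPKM in Het and to 23.5 and 22.1 RPKM in Nf1-KO, with 4 of 4 higher. For macrophages and leukocytes the sums were 1.2 and 1.6 RPKM against 3.59 and 3.27 RPKM, with both tested markers higher and Adgre1 listed at 0 throughout. Pericyte and smooth muscle markers had 2 of 4 higher, tendon markers 1 higher and 1 lower of 2, adipocyte markers 1 of 2 higher (Cfd) and satellite cell markers 1 of 3 higher (Vcam1). Endothelial markers, at 69.7 and 70 RPKM against 75.7 and 74.8 RPKM, had 2 higher and 1 lower of 5. In the pericyte, adipocyte and satellite cell lists every call was higher, against 24.9% of all genes. These lists and the endothelial list hold too few tested genes for their counts to be compared with such a share. Their counts are not read as a shift of a cell type. Of the 6 muscle fibre markers, 2 were higher and 4 lower. The part of cell composition in the changes of Igf2, the binding proteins and the other genes was not tested, and in whole muscle fewer cells of a type and less RNA per cell cannot be told apart.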

How the data were processed

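RNA of 4 tibialis anterior libraries (2 Het, 2 Nf1-KO) was measured. The submitters' processing notes name STAR 2.4.2a, DESeq2 and the build mm9, with no roles; counting and annotation are not given in the sources used here. Per library the authors deposited 1 value per gene, read as RPKM from the values, since no unit is named. The authors' deposited table has, per the file headers, a mean normalized count signal, a log2 fold change with its standard error, a test score and its p-value, plain and adjusted.

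Of 34682 rows, 33 with a number for a name were left out and the copy with the highest mean was kept for each name. Testing covered genes that reached 0.5 RPKM in 2 or more libraries, with limma 3.58.1 (R 4.3.3, variance trend, no covariate) on log2(value + 1), two-sided. This scale understates changes of low genes. Values were scaled by a trimmed mean of log ratios, with factors of 0.968, 0.967, 1.03 and 1.03. Levels and ratios are of values as deposited. Scripts were tested on simulated data.

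The members and lists were chosen with earlier results of these data known. From each list the 4 tested genes with the smallest adjusted p and a mean of at least 1 RPKM were named, with further members by their function. Sequences are RefSeq windows of GRCm38.p6 and overlaps are from GENCODE M21, so their positions are not those of the build in the notes. Depth per library is not given as counts. The labels give no batch. Alternatives were another pseudocount, filter, scaling, variance model, threshold and treatment of copies, a replicate block and each library left out.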

Additional observations from a re-analysis of the deposited data

How the results depend on the processing

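Igf2, Igfbp3, Irs2 and Igfbp4 stayed higher and Irs1, Igfbp5 and Igf2r lower, past the threshold, under each of 12 refits, and at an adjusted p of 0.01 the counts were again 4 and 3. At that stricter threshold, 1829 of the 10690 genes tested were higher and 1818 lower. Over the 12 refits the log2 fold change ran from 1.83 to 2.13 for Igf2, from -0.79 to -0.61 for Irs1 and from -0.65 to -0.54 for Igfbp5. With values as deposited, Igf1 (0.035) and Igf1r (0.012) turned positive and Insr (0.11) passed; the scaling factors differ between the groups, which shifts every gene upwards. Without each library in turn, Igf1 ran from -0.064 to 0.029 and turned positive without Het replicate 2. Nf1 lost its call with no filter (-0.18), with values as deposited (-0.13), with the replicate number as a block (-0.18) and without each library in turn (-0.21 to -0.15); the cause was not tested. The filter that asks for 1 RPKM in every library leaves Nf1 out, since it was at 0.89 and 0.85 RPKM in Nf1-KO. Ndn lost its call with no filter (0.50, limma adjusted p 0.058).

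Replicate numbers showed no sign of pairing: across 10690 genes, the correlation between the deviations of libraries with the same number was -0.018. The labels state no pairing, and with 2 libraries per group this correlation cannot exclude one. With the replicate block, 2643 genes were higher and 2700 lower, and no call among the 10 genes changed. Without 1 library, an arm has 1 sample, which is assumed to vary like the other group. Depth limits low genes: Igf1 rests on a mean normalized count of 418 in the authors' deposited table.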
